A study of Rattus norvegicus with 31 samples.

Results

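The genes described here are expressed in male germ cells from meiotic prophase to the spermatid. They were listed by name, as 34 genes in 3 classes. Of the 34, 26 had a probe set annotated with their symbol, of 14217 genes that had one on the array. The class of meiotic prophase had 5 of its 9 genes on the array, namely Sycp1, Sycp2, Spo11, Ccna1 and Hspa2. The class of genes switched on in spermatocytes and carried into spermatids had 7 of 9, namely Ldhc, Pdha2, Slc25a31, Adam2, Acr, Crisp2 and Tekt1. The spermatid class had 14 of 16, namely Tnp1, Tnp2, Prm1, Prm2, Odf1, Odf2, Akap4, Acrv1, Tcp11, Gapdhs, Hspa1l, Smcp, Oaz3 and Spag4. The other 8, Dmc1, Hormad1, Meiob, Piwil1, Pgk2, Spata18, Spag6 and Tssk1b, had no probe set under their symbol and were not analysed here. Where a gene had several probe sets (Ccna1, Hspa2 and Odf2), the one of highest mean over all arrays stands for it.

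The study hybridised total RNA of testes from LBNF1 hybrid rats, 25 to 27 weeks old, to 31 Affymetrix rat arrays. The sample titles call all testes irradiated, and the labels give a dose of 6 Gy to the lower abdomen. In 6 arrays the rats had hormone ablation plus estradiol, in 11 arrays hormone ablation, and in 14 arrays sham treatment. Ablation means a gonadotropin-releasing hormone antagonist together with an androgen receptor antagonist. The labels of the estradiol group also name follicle-stimulating hormone supplementation, and estradiol is taken here as the added compound, after the series design. Among the 14 sham arrays, 10 are described as coming from control testes and 4 (sham 11 to 14) from irradiated ones, although all 14 titles say irradiated. The 6 estradiol arrays were deposited later than the other 25, so a difference of the estradiol group cannot be told apart from a difference of the deposit. The labels do not settle whether the 10 sham testes described as control had been irradiated. Whether a probe set that was low everywhere would report its transcript in a testis with complete spermatogenesis was not tested.

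Sperm form in a fixed order. Spermatogonia divide and enter meiosis, spermatocytes pair and recombine their chromosomes in a long prophase, and round spermatids then compact their nucleus and build the acrosome and tail. In the nucleus of late spermatids, transition proteins replace histones and are themselves replaced by protamines. In LBNF1 rats, radiation is known to leave spermatogonia that survive but do not differentiate, and suppression of testosterone is known to let them resume differentiation. Genes of meiosis and of the spermatid therefore serve as readouts of how far germ cells have progressed.

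The values are deposited signals on a log scale, read here as log2. Array medians lay between -1.44 and -1.24, the 40th percentile between -1.93 and -1.75, and the 75th percentile between -0.12 and 0.21. A probe set's value does not measure abundance on a scale shared with other probe sets, so the 75th percentile of each array was used only as a fixed mark. Of the labelled tissue, Sertoli and Leydig cell markers were measured. Means of 10 Sertoli cell markers lay between 1.43 and 1.81 on estradiol arrays, 1.37 and 1.85 on ablation arrays, and 0.77 and 1.50 on sham arrays. Means of 7 Leydig cell markers lay between 0.45 and 1.09 on estradiol arrays, 0.88 and 1.58 on ablation arrays, and 2.39 and 3.22 on sham arrays. Labels call each array a biological replicate, and p-values measure the spread between arrays.

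Most of these genes were low on most arrays. Of the 26, 12 were above the 75th percentile on no array, 11 on 1 to 3 arrays and 3 on 4 or more. There were 5 genes, Sycp1, Spo11, Pdha2, Acr and Hspa1l, that never exceeded even the 40th percentile of an array. A filter that asks for a value above the 40th percentile on at least 6 arrays was passed by 12 genes and not by 14, and no such filter was applied. Since the samples are whole testes, fewer cells of a kind and less RNA per cell cannot be told apart.

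**Figure D1:**
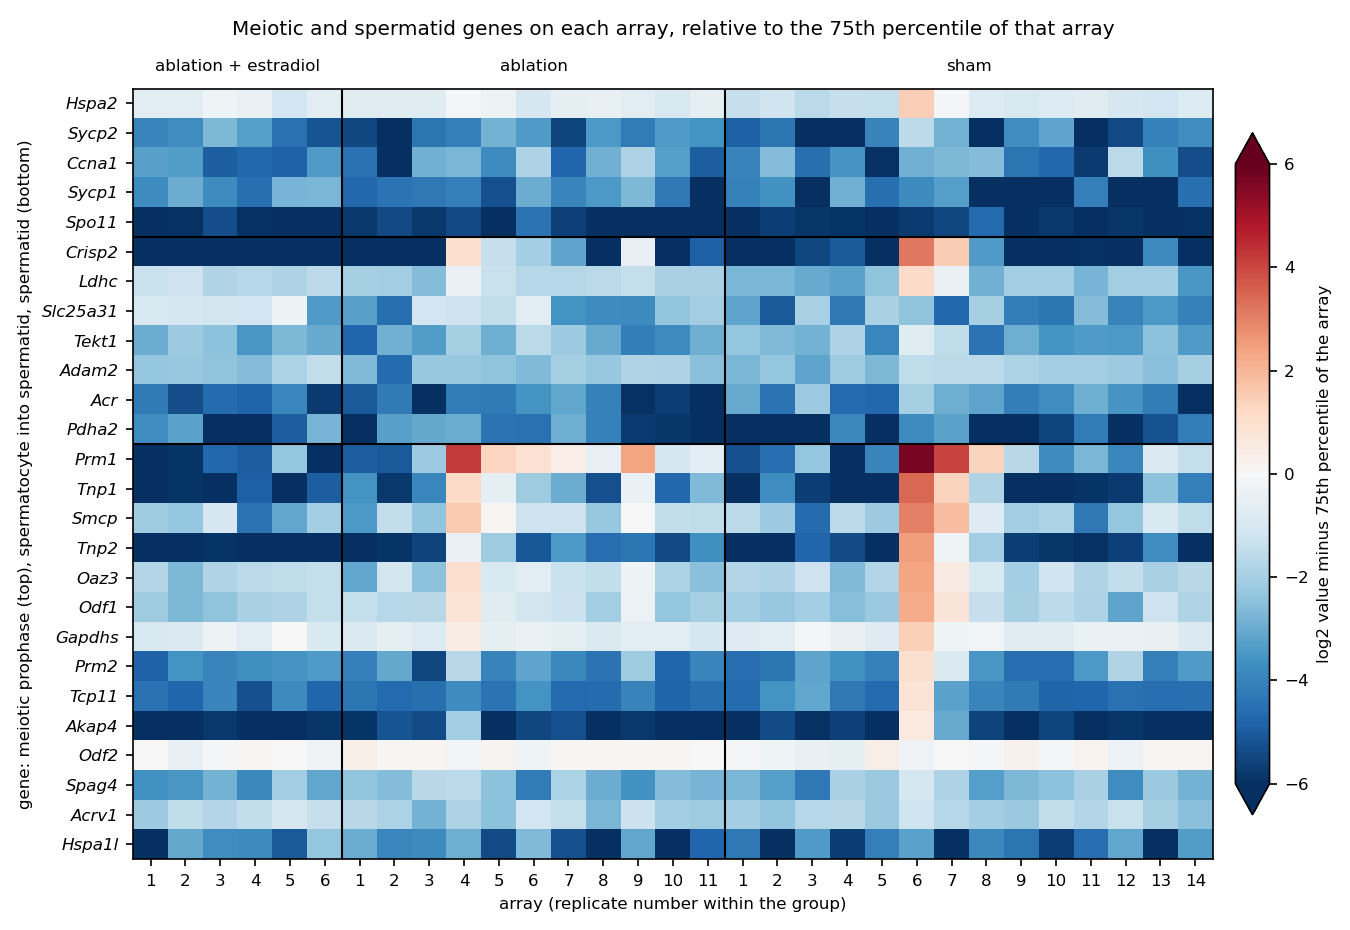
Each column is 1 of the 31 arrays and each row 1 of the 26 genes, and the colour is the log2 value minus the 75th percentile of that array. Red cells, above that percentile, cluster in the spermatid rows of sham 6, sham 7 and ablation 4, where 10, 5 and 6 of 14 spermatid genes lie above it.

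Spermatid transcripts were concentrated on a few single arrays, and these came from different groups. Sham 6 had the highest value of all 31 arrays for 19 of the 26 genes, 12 of them among the 14 spermatid genes. On any array 25% of all probe sets lie above its 75th percentile by construction. On sham 6, 10 of 14 spermatid genes lay above the 75th percentile (71.4%). Ablation 4 had 6 of 14 (42.9%) and sham 7 had 5 of 14 (35.7%). The next, ablation 5, had 3 of 14 (21.4%), below the share of all probe sets. The highest count among the estradiol arrays was 2 of 14, on estradiol 5, where the genes were Odf2 and Gapdhs. An array was said to hold spermatid transcripts where at least 50% of the spermatid genes exceeded its 75th percentile, and by that measure 0 of 6 estradiol, 0 of 11 ablation and 1 of 14 sham arrays (sham 6) held them. By the same measure 0 arrays of any group held meiotic prophase transcripts, but 4 of the 5 prophase probe sets exceeded the mark on no array, so no array could meet it. Of 17 further meiotic genes, estradiol arrays had 1 to 4 above the mark, ablation arrays 1 to 3 and sham arrays 1 or 2. The 4 (23.5%, Tex15, Mybl1, Tdrd1 and Trip13) were on estradiol 2, which is below the 25% of all probe sets. On that array 0 of 14 spermatid genes exceeded the mark, as on estradiol 3 and estradiol 6, which had 2 and 3 of the 17. Tex15 exceeded it on all 6 estradiol arrays and Mybl1 on all 14 sham arrays. At the lower mark of the 60th percentile, 3 ablation and 2 sham arrays held spermatid transcripts. By construction a larger share of all probe sets exceeds that mark, and Odf2 did so on 31 arrays and Gapdhs on 28. At the 75th percentile with 25% of the class, which equals the share of all probe sets, 1 ablation and 2 sham arrays held them.

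Protamine 1 (Prm1, probe set 1394007_at), the basic protein that packs sperm DNA, gave the widest range. It ran from -6.09 to -2.43 on estradiol arrays with a median of -5.40, from -5.14 to 4.18 on ablation arrays with a median of -0.38, and from -6.11 to 5.78 on sham arrays with a median of -2.56. Prm1 averaged -5.01 ± 1.38 on estradiol, -0.43 ± 2.83 on ablation and -1.76 ± 3.42 on sham arrays (SD, n = 6, 11 and 14). No estradiol array reached the 75th percentile, whereas 5 of 11 ablation arrays and 3 of 14 sham arrays exceeded it. The ablation arrays above it were ablation 4 (4.18), ablation 9 (2.32), ablation 5 (1.44), ablation 6 (0.85) and ablation 7 (0.44). The sham arrays above it were sham 6 (5.78), sham 7 (3.99) and sham 8 (1.31). Prm1 was thus above that mark on more arrays than any other gene of the spermatid class but Odf2.

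Transition protein 1 (Tnp1, probe set 1387473_at), which takes the place of histones before the protamines, followed the same arrays at lower values. It lay between -7.20 and -4.92 on estradiol arrays (median -5.96), between -5.89 and 1.14 on ablation arrays (median -2.94), and between -7.48 and 3.56 on sham arrays (median -5.77). The means were -5.92 ± 0.86 on estradiol, -2.77 ± 2.18 on ablation and -4.14 ± 3.30 on sham arrays (SD). Only sham 6 (3.56), sham 7 (1.28) and ablation 4 (1.14) exceeded the 75th percentile, and ablation 5 (-0.41) and ablation 9 (-0.43) came next. Tnp2, the second transition protein, lay between -7.46 and -5.95 on estradiol arrays (median -6.69). On ablation arrays it lay between -7.89 and -0.43 (median -4.48), and on sham arrays between -8.19 and 2.63 (median -5.53). For Tnp2 only sham 6 stood above the 75th percentile, and the next arrays were again sham 7 and ablation 4. Prm2, the second protamine, lay between -4.66 and -3.51 on estradiol arrays (median -3.66), between -5.36 and -1.69 on ablation arrays (median -3.85), and between -4.54 and 1.09 on sham arrays (median -3.59). Sham 6 alone was above the 75th percentile for Prm2, and the arrays next to it were the same as for Tnp1 and Tnp2. Prm1, Prm2 and Tnp2 lie next to each other on chromosome 10 in the RefSeq annotation, with Prm3 and a long noncoding RNA between.

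The promoters of Prm1, Tnp1, Smcp and Oaz3, which peaked on the same arrays, are shown beside those of Tnp2, which peaked on them too, and of Slc25a31, which did not. CREM, a transcription factor of spermatids, is known to bind the cAMP response element and its variants in promoters of several such genes. Capitals mark the letters TGANNTCA, which read the same on both strands and include the full element TGACGTCA and the form TGACTTCA. The sequences are the 200 bases before the gene start in RefSeq's annotation of build GRCr8, on the gene's own strand.
Prm1: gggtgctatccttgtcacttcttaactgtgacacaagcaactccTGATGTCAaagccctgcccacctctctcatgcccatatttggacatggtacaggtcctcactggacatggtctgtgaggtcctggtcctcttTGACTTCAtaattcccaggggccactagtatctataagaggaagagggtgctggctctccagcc
Tnp1: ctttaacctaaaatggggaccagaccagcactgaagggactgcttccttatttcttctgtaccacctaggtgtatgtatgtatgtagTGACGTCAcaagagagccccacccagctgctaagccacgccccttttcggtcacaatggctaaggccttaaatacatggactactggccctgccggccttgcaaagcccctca
Tnp2: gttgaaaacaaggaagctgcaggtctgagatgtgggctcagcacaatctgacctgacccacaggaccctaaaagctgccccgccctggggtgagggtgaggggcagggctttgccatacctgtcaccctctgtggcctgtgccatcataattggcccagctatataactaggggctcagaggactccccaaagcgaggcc
Smcp: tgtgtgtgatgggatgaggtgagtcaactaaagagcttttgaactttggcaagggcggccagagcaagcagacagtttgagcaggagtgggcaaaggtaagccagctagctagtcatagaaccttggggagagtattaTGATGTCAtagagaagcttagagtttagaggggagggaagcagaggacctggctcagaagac
Oaz3: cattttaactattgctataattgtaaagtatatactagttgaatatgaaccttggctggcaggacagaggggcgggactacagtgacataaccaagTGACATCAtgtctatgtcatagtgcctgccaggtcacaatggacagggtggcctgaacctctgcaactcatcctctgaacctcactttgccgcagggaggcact
Slc25a31: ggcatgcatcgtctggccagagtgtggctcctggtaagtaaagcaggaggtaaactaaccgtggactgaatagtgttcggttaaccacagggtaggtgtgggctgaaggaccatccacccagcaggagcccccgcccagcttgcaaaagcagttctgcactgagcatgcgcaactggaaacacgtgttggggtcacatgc

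These windows lie at chr10:5378540-5378739 (plus strand) for Prm1, chr9:82044279-82044478 (minus strand) for Tnp1, chr10:5386535-5386734 (plus strand) for Tnp2, chr2:180861565-180861764 (minus strand) for Smcp, chr2:184765177-184765376 (minus strand) for Oaz3 and chr2:125623131-125623330 (plus strand) for Slc25a31. Counted from the gene start, the first marked base is at -156 and -64 in Prm1, -113 in Tnp1, -62 in Smcp and -104 in Oaz3. Among all 33469 RefSeq windows of this length, 11.3% held TGANNTCA, 1.46% held TGACGTCA and 1.18% held TGACTTCA. Of the 23 genes described here with a window, 8 held TGANNTCA. These were 7 of 12 spermatid genes (Gapdhs, Smcp, Oaz3, Tnp1, Prm1, Hspa1l and Akap4) and 1 of 11 others (Acr). Tnp2 peaked on the same arrays as Tnp1 and has no match in its window, and Hspa1l has a match and was low on every array. A match is a description of letters, not of binding, and these motifs were chosen after the values had been seen.

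Smcp and Odf1 were highest on the same arrays. Smcp, a cysteine-rich protein of the mitochondrial capsule, lay between -4.44 and -1.04 on estradiol arrays (median -2.22), between -3.43 and 1.54 on ablation arrays (median -1.33), and between -4.75 and 3.11 on sham arrays (median -1.79). It exceeded the 75th percentile on sham 6, sham 7, ablation 4 and ablation 5. Odf1, a protein of the outer dense fibres of the tail, lay between -2.66 and -1.57 on estradiol arrays (median -1.96), between -2.19 and 0.77 on ablation arrays (median -1.44), and between -3.15 and 2.34 on sham arrays (median -1.78). For Odf1 the arrays above the 75th percentile were sham 6, ablation 4 and sham 7.

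Akap4, an anchoring protein of the fibrous sheath, was at the bottom of most arrays. It lay between -6.39 and -5.85 on estradiol arrays (median -6.04), between -6.43 and -2.09 on ablation arrays (median -5.81), and between -6.96 and 0.71 on sham arrays (median -5.94). Only sham 6 reached the 75th percentile, with ablation 4 (-2.09) and sham 7 (-3.09) next. Tcp11, a testis protein linked to sperm function, was high on sham 6 alone: it lay between -5.27 and -3.93 on estradiol arrays (median -4.50), between -4.76 and -3.64 on ablation arrays (median -4.40), and between -4.78 and 0.94 on sham arrays (median -4.36). After sham 6 the next sham array, sham 3, had -3.25.

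The other spermatid genes were of 3 kinds. Oaz3, the antizyme of spermatids, and Gapdhs, the glycolytic enzyme of sperm, peaked on sham 6 (2.47 and 1.54) and then on ablation 4 (1.00 and 0.44). Acrv1, an acrosomal protein, and Spag4, a nuclear envelope protein, were highest on sham 6 (-1.08 and -0.95) without reaching the 75th percentile on any array. Hspa1l, a testis heat shock protein, stayed between -7.02 and -2.42 over all arrays. Odf2, which also serves centrosomes of other cells, differed by probe set. Its probe set of highest mean, 1399142_at, lay between -0.61 and 0.55 on all arrays and was at -0.09 on sham 6, whereas 1368466_a_at had its highest value of all arrays on sham 6 (1.90). The choice of probe set thus decided whether Odf2 followed the other tail genes.

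**Figure D2:**
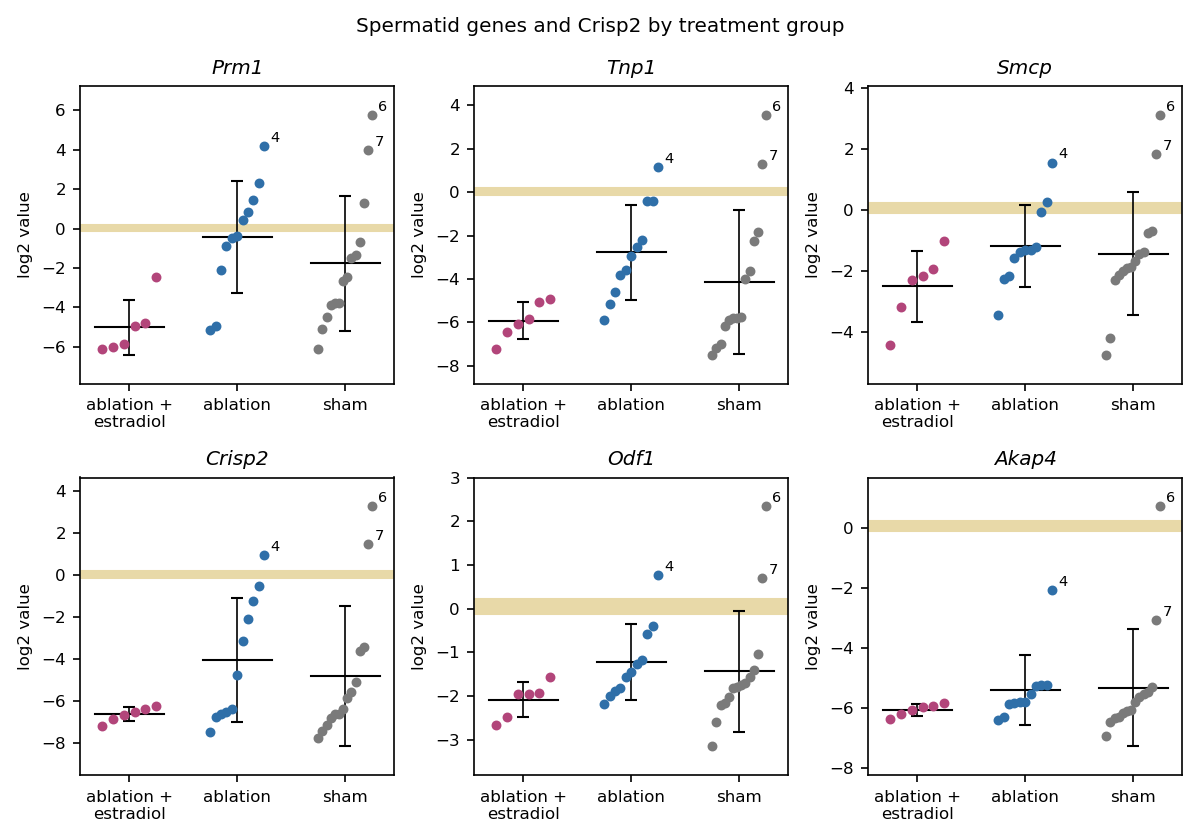
Points are single arrays, ordered by value within each group, bars are the group mean ± SD (n = 6, 11 and 14), the y axis is the log2 value and the shaded band spans the 75th percentiles of the arrays (-0.12 to 0.21). The numbers 6 and 7 mark sham 6 and sham 7 and the number 4 marks ablation 4, which exceed the other arrays of their groups for these 6 genes, while the highest estradiol value for Prm1 is -2.43.

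Among the genes that start in spermatocytes, Crisp2 behaved like the spermatid genes. Crisp2, a cysteine-rich secretory protein of the acrosome and tail, lay between -7.18 and -6.23 on estradiol arrays (median -6.59), between -7.47 and 0.96 on ablation arrays (median -4.76), and between -7.78 and 3.28 on sham arrays (median -6.12). Sham 6 (3.28), sham 7 (1.47) and ablation 4 (0.96) stood above the 75th percentile, as for Tnp1. Ldhc, the lactate dehydrogenase of germ cells, lay between -1.97 and -1.12 on estradiol arrays (median -1.70), between -2.51 and -0.44 on ablation arrays (median -1.79), and between -3.40 and 1.25 on sham arrays (median -2.37). Only sham 6 (1.25) exceeded the 75th percentile, with ablation 4 (-0.44) and sham 7 (-0.46) next. All 6 estradiol arrays and 10 of 11 ablation arrays lay above the sham median for Ldhc.

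Acr, the acrosomal protease acrosin, lay between -5.86 and -4.03 on estradiol arrays (median -4.73), between -6.37 and -3.09 on ablation arrays (median -4.32), and between -5.98 and -1.90 on sham arrays (median -3.61). The groups overlapped, and no value reached the 40th percentile of its array. Of the other genes of this class, Pdha2, the autosomal germ cell form of a pyruvate dehydrogenase subunit, lay between -7.93 and -2.89 over all arrays. Adam2, a sperm membrane protein for egg contact, lay between -4.72 and -1.42, and Tekt1, a filament protein of the flagellum, between -4.76 and -0.61. Adam2 and Tekt1 were both highest on sham 6, and Pdha2 was highest on ablation 7.

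Slc25a31 (probe set 1397739_at), the ADP/ATP carrier of germ cell mitochondria, had another order of groups. It was -0.41 on estradiol 5, -0.76 on estradiol 1, -0.97 on estradiol 2, -1.13 on estradiol 4, -1.14 on estradiol 3 and -3.50 on estradiol 6. On ablation arrays it lay between -4.62 and -0.75 with a median of -2.22, highest on ablation 6 (-0.75), ablation 3 (-1.05), ablation 4 (-1.25) and ablation 5 (-1.33), and on sham arrays between -4.98 and -1.76 with a median of -3.61. The means were -1.32 ± 1.10 on estradiol, -2.50 ± 1.34 on ablation and -3.38 ± 1.09 on sham arrays (SD). Of the 6 estradiol arrays, 5 lay above every sham array, as did those 4 ablation arrays, and estradiol 6 fell within the sham range. Sham 6 (-2.30) and sham 7 (-4.77) were not among its high arrays.

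Of the meiotic prophase genes, Sycp1, Sycp2, Spo11 and Ccna1 were below the 75th percentile on every array, sham 6 included. Sycp1, the transverse filament of the synaptonemal complex, lay between -4.52 and -2.86 on estradiol arrays (median -3.28), between -6.52 and -2.75 on ablation arrays (median -4.14), and between -8.71 and -2.93 on sham arrays (median -4.38). Sham 6 was at -3.72 and did not stand out. Spo11, the enzyme that cuts DNA to start recombination, lay between -6.66 and -5.36 on estradiol arrays (median -6.12), between -7.47 and -4.50 on ablation arrays (median -5.81), and between -8.56 and -4.68 on sham arrays (median -5.89). The 3 groups overlapped for both genes.

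Hspa2, a heat shock protein of spermatocytes that other cells express as well, was the 1 prophase gene to exceed the 75th percentile. It lay between -1.27 and -0.32 on estradiol arrays (median -0.54), between -1.07 and -0.08 on ablation arrays (median -0.65), and between -1.71 and 1.58 on sham arrays (median -0.89). Sham 6 alone was above the mark. Sycp2, of the lateral element, peaked on sham 6 at -1.48, and Ccna1, a cyclin of spermatocytes, peaked on sham 12 at -1.64. For both Hspa2 and Ccna1 the peak depended on the probe set. The other probe set of Hspa2, 1369841_at, was at -1.23 on sham 6 and highest on sham 13 (-1.22), and that of Ccna1, 1393598_at, was highest on sham 6 (-3.47).

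**Figure D3:**
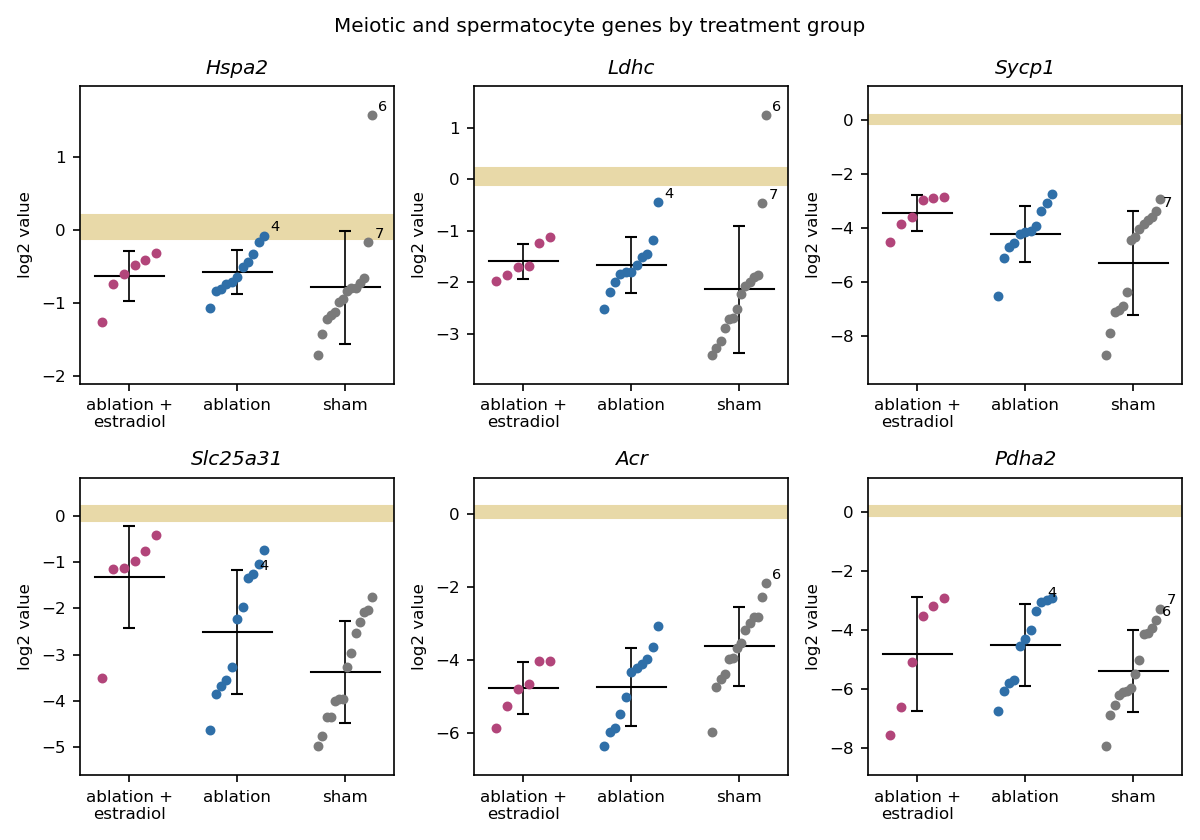
Points are single arrays, ordered by value within each group, bars are the group mean ± SD (n = 6, 11 and 14), the y axis is the log2 value and the shaded band spans the 75th percentiles of the arrays. Numbers mark sham 6, sham 7 and ablation 4 where they are among the 3 highest of their group. Hspa2 (1.58) and Ldhc (1.25) lie above the band on sham 6, while Sycp1, Acr and Pdha2 stay below it on every array and 5 of 6 estradiol arrays of Slc25a31 lie above all sham arrays.

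Ablation plus estradiol against ablation asks what estradiol added once pituitary and androgen signals were suppressed. With limma, 1 of the 26 genes was called at an adjusted p under 0.05, Prm1, which was lower, and 0 were higher. Of all 31042 probe sets tested, 3.66% were called, 3.25% lower and 0.409% higher. Of the 26 genes, 4 had an unadjusted p under 0.05, as did 4343 of all 31042 probe sets. The log2 change of Prm1 was -4.59 with a standard error of 1.34 (adjusted p = 0.0466, 6 against 11 arrays). No fold is given, since 0 of 6 estradiol arrays exceeded the 40th percentile. All 6 estradiol arrays lay below the ablation median. The call was narrow. It was lost without any 1 of 17 arrays (sham 9, 11, 13 or 14, ablation 4 to 11, or estradiol 1, 2, 3, 4 or 6), where the adjusted p reached 0.116 (-4.37, without estradiol 6). It was also lost after median centring (adjusted p = 0.0536), without the variance trend (adjusted p = 0.0777), and with a floor set at each array's 40th percentile (-2.06, adjusted p = 0.251).

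Other spermatid genes had estimates in the same direction that did not pass. The log2 changes were -3.15 ± 1.21 for Tnp1 (adjusted p = 0.18), -2.27 ± 1.09 for Tnp2 (adjusted p = 0.343), -1.33 ± 0.77 for Smcp (adjusted p = 0.467) and -0.86 ± 0.51 for Odf1 (adjusted p = 0.48). All 6 estradiol arrays lay below the ablation median for Tnp1, Tnp2 and Odf1, and 5 of 6 for Smcp. Estimates were near 0 for Prm2 (-0.19 ± 0.60), Tcp11 (-0.19 ± 0.51) and Gapdhs (-0.06 ± 0.22), and Akap4 had -0.67 ± 0.72. The spermatid class had 12 of 14 negative changes and a median of -0.55, the 7 genes that start in spermatocytes a median of 0.07, and the 5 prophase genes 0.10. The median of all probe sets was -0.02. Crisp2 had -2.59 ± 1.33 (adjusted p = 0.386) and Slc25a31 1.19 ± 0.56 (adjusted p = 0.329).

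Ablation plus estradiol against sham asks how the full treatment differed from sham treatment. With limma, 1 of 26 genes was higher, Slc25a31, and 0 were lower, while 9.46% of all probe sets were called, 2.69% higher and 6.77% lower. Of the 26 genes, 4 had an unadjusted p under 0.05, as did 6357 of all 31042 probe sets. The log2 change of Slc25a31 was 2.06 with a standard error of 0.54 (adjusted p = 0.00946, 6 against 14 arrays). All 6 estradiol arrays lay above the sham median. It passed in each fit that left out 1 array, where the adjusted p reached 0.0357. Against sham 11 to 14 alone the change was 2.12 with an adjusted p of 0.0747, and Sycp1 was called in its place (2.41, adjusted p = 0.0434). Sham values of Slc25a31 averaged -3.38, and 1 of 14 exceeded the 40th percentile. With the floor at that percentile the change was 0.79 ± 0.15 (adjusted p = 0.000246). The floor raised nearly all sham values to that percentile and so narrowed their spread, and the smaller adjusted p is no stronger call.

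The next genes did not pass. Sycp1 had 1.87 ± 0.68 (adjusted p = 0.0803), with 5 of 6 estradiol arrays above the sham median, but all its values lay below the 40th percentile of their arrays. Prm1 had -3.26 ± 1.29 (adjusted p = 0.12), Acr -1.15 ± 0.49 (adjusted p = 0.154) and Tnp2 -1.98 ± 1.05 (adjusted p = 0.295). Of the 26 genes 17 had negative estimates, 12 of them among the 14 spermatid genes, and the median was -0.29 against -0.02 over all probe sets. Both comparisons of this group use the same 6 estradiol arrays.

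Ablation against sham asks whether hormone suppression alone changed these transcripts. With limma, 0 of 26 genes were called either way, against 12.6% of all probe sets, 5.76% higher and 6.79% lower. An unadjusted p under 0.05 was reached by 1 gene, Acr, and by 7539 of all 31042 probe sets. The change of Acr was -1.11 ± 0.40 (adjusted p = 0.0658, 11 against 14 arrays), with 10 of 11 ablation arrays below the sham median. Tnp1 had 1.37 ± 0.96 (adjusted p = 0.416) and Prm1 1.33 ± 1.07 (adjusted p = 0.492). For Tnp1 10 of 11 ablation arrays lay above the sham median, and for Prm1 9 of 11, while the highest array of each was sham 6. Smaller estimates were 0.87 ± 0.44 for Slc25a31, 1.08 ± 0.56 for Sycp1, 0.88 ± 0.57 for Pdha2, 0.47 ± 0.34 for Ldhc, 0.21 ± 0.22 for Hspa2, 0.12 ± 0.39 for Spo11 and -0.08 ± 0.57 for Akap4.

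The 3 arrays richest in spermatid transcripts set much of the spread in these tests. Without sham 6, sham 7 and ablation 4, left out because of their values of these very genes, 3 genes were higher with ablation than with sham. They were Ldhc (0.76 ± 0.20, adjusted p = 0.00866), Tnp1 (2.07 ± 0.67, adjusted p = 0.036) and Hspa2 (0.41 ± 0.13, adjusted p = 0.0338), against 6.22% of all probe sets. Against sham, 3 genes were then higher with ablation plus estradiol, namely Ldhc (0.96, adjusted p = 0.00587), Sycp1 (2.16, adjusted p = 0.0413) and Slc25a31 (2.03, adjusted p = 0.0123), against 2.67%. Prm1 was still lower with estradiol than with ablation (-4.13 ± 0.99, adjusted p = 0.0113, against 3.19%). Arrays chosen in this way make the groups narrower by construction, so these values describe the arrays that are left and are no separate support.

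**Figure D4:**
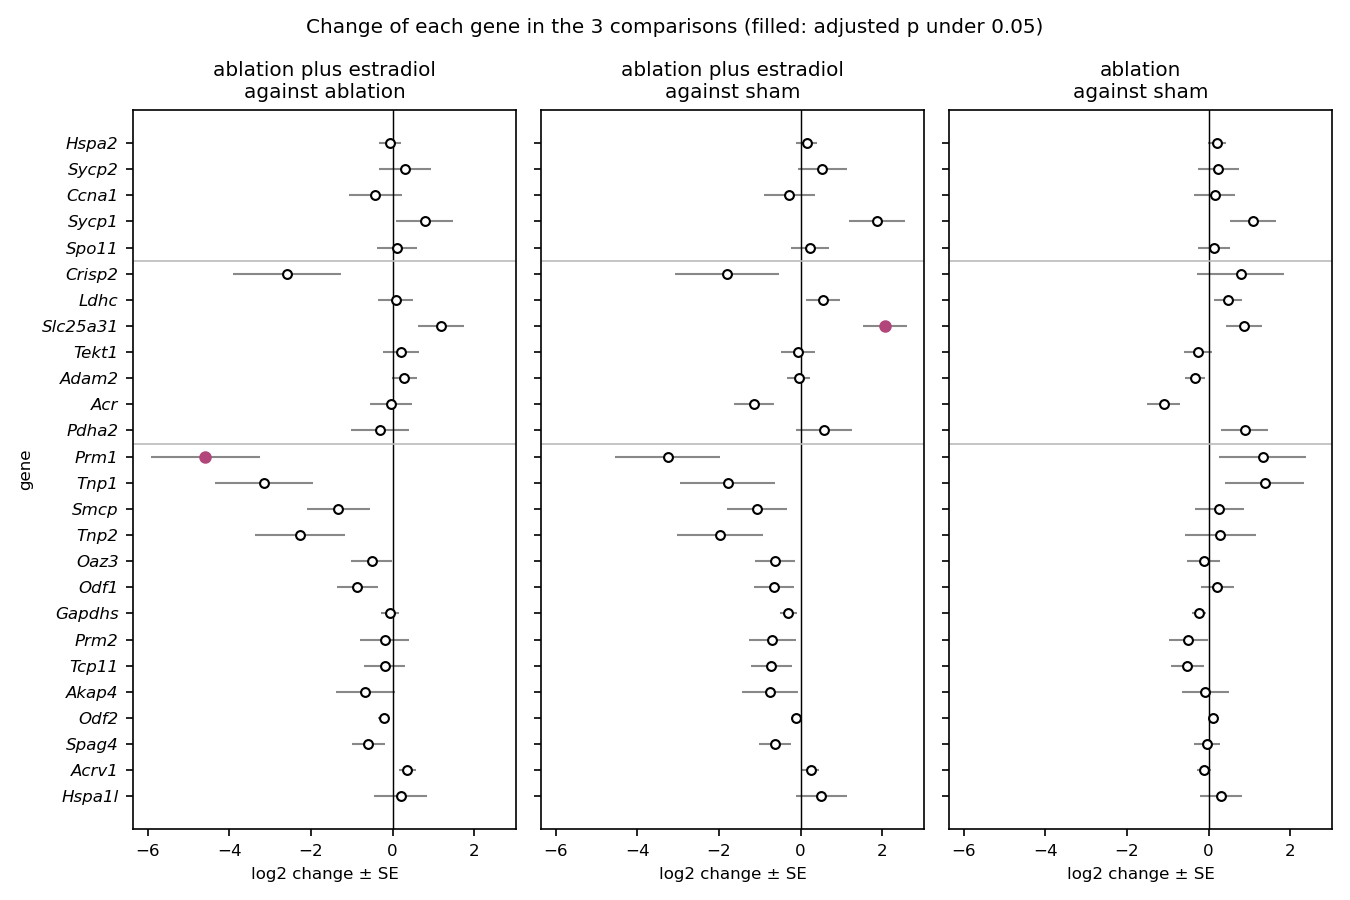
Each point is the log2 change of 1 gene with its standard error, in 3 panels for ablation plus estradiol against ablation, ablation plus estradiol against sham, and ablation against sham. Filled points passed limma's adjusted p of 0.05, which are Prm1 (-4.59) in the first panel and Slc25a31 (2.06) in the second.

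The sham arrays were also set against each other by their description. With limma, 0 of 26 genes and 0 of 31042 probe sets passed between the 4 sham arrays described as irradiated and the 10 described as control. No gene of the 26 had an unadjusted p under 0.05, while 1016 of all probe sets did. Sham 6, sham 7 and sham 8, the sham arrays with Prm1 above the 75th percentile, are all described as control. On the 4 arrays described as irradiated, Prm1 lay between -3.89 and -0.68 and Tnp1 between -5.81 and -2.27.

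Of 42 further meiotic genes 17 had a probe set, and with ablation against sham 7 were higher and 0 lower, where 5.76% of all probe sets were higher and 6.79% lower. Tex15, needed for repair of meiotic breaks, had the smallest p at 0.98 ± 0.12 (adjusted p = 1.15e-07). Next came Tdrd1, of the piRNA pathway (0.72), Trip13, a remodeller of meiotic chromosome axes (0.57), Rec114, needed to form breaks (0.79), and Sycp3, of the lateral element (0.97). With ablation plus estradiol against sham 11 were higher and 0 lower, where 2.69% of all probe sets were higher and 6.77% lower. They included Tex15 (1.26 ± 0.14, adjusted p = 4.26e-08), Tdrd1 (0.88), the cohesin subunit Stag3 (0.96), Trip13 (0.74) and Piwil2 (0.70), a partner of piRNAs. With ablation plus estradiol against ablation 0 of 17 passed in limma. An unadjusted p under 0.05 was reached by 2, and by 4343 of all 31042 probe sets. Without the 3 arrays richest in spermatid transcripts the counts were 7 and 10 higher, against 6.22% and 2.67% of all probe sets.

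Levels of these genes show both patterns. Tex15 lay between 0.21 and 1.10 on estradiol arrays (median 0.65), between -0.19 and 0.88 on ablation arrays (median 0.35), and between -1.13 and -0.15 on sham arrays (median -0.59). All 6 estradiol arrays and 9 of 11 ablation arrays were above the 75th percentile, and no sham array was. Sycp3 lay between -1.55 and -0.43 on estradiol arrays (median -0.98), between -1.90 and -0.62 on ablation arrays (median -1.05), and between -2.93 and 1.20 on sham arrays (median -2.49). Its highest array was sham 6, so this partner of Sycp1 was high where Sycp1 was not. Of 15 spermatogonial markers, 3 were higher with ablation plus estradiol against ablation (0.409% of all probe sets), 8 with ablation plus estradiol against sham (2.69%) and 5 with ablation against sham (5.76%), and 0 were lower. Body cell markers moved in the same comparisons. For Leydig cells, 7 markers were tested: each comparison with sham had 5 lower and 1 higher, and estradiol against ablation had 3 lower. For macrophages, 6 markers were tested: 2 were lower with estradiol and 5 with ablation, each against sham, and 1 was higher in each. Of 10 Sertoli cell markers, 4 were higher in each comparison with sham and 0 lower. Of all probe sets, 6.77% were lower with estradiol against sham, 6.79% with ablation against sham and 3.25% with estradiol against ablation. The part of these cells, and of spermatogonia, in the meiotic counts was not tested.

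Of 60 further spermatid genes 34 had a probe set. With ablation plus estradiol against ablation 0 passed in limma, and 5 had an unadjusted p under 0.05 (4343 of all 31042 probe sets did). With ablation plus estradiol against sham 2 were lower, and with ablation against sham 3 were lower, with 0 higher in any comparison. These shares of the 34 are close to the 6.77% and 6.79% of all probe sets that were lower. Tekt3, a flagellar filament protein, had -3.61 ± 0.35 with ablation plus estradiol against sham and -2.60 ± 0.29 with ablation against sham (adjusted p = 8.97e-10 and 1.54e-08). Hk1, a hexokinase of many cells with a germ cell form, had -0.86 and -0.84, and Crem had -0.43 with ablation against sham. Tekt3 lay between -5.50 and -2.53 on estradiol arrays, between -4.57 and -0.93 on ablation arrays, and between -0.55 and 0.67 on sham arrays, where 11 of 14 exceeded the 75th percentile. High on nearly every sham array, it did not follow the 3 arrays with spermatid transcripts.

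By construction 25% of all probe sets exceed the 75th percentile of an array. On sham 6, 10 of the 34 did (29.4%), and on sham 7 and ablation 4 5 each (14.7%). Each estradiol array had 2, the other ablation arrays 1 or 2, and the other sham arrays 2 to 4, mostly Tbpl1, Tekt3 and Hk1. Named after their values were seen, Gsg1 (2.64), Ropn1l (1.91), Hils1 (0.73), Meig1 (0.61) and Akap3 (0.22) had their highest value on sham 6. Among ablation arrays, Gsg1 (0.87) and Ropn1l (0.14) were highest on ablation 4. Ciliated cells of the efferent ducts share flagellar genes, and epididymal tissue could carry sperm. Of 4 ciliated cell markers 0 exceeded the 75th percentile on any array. Their list mean lay between -3.36 and -1.73 on estradiol, -4.00 and -2.07 on ablation and -3.96 and -1.61 on sham arrays. Of 5 epididymis markers, 1 (Cst8) did so, on ablation 4, and their list mean lay between -2.47 and -1.61, -2.34 and -1.56, and -2.25 and -1.41 on estradiol, ablation and sham arrays. With limma, 1 of the 5 was lower with ablation plus estradiol against ablation (adjusted p = 0.00722, against 3.25% of all probe sets). Against sham 1 was lower too (adjusted p = 0.0275, against 6.77%), and with ablation against sham 0 passed. Without sham 6, sham 7 and ablation 4, Cst8 was the 1 lower against ablation. The part of epididymal tissue in the spermatid values was not tested, nor was whether the Cst8 signal came from epididymal or germ cells. Among sham arrays, Foxj1 (-0.43) and Rsph1 (-3.12) of the 4 ciliated markers and Cst8 (0.06) of the 5 epididymis markers peaked on sham 6. They were named after their values were seen, and which cells gave the Foxj1 and Rsph1 signal was not tested either.

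Body cells use relatives of several of these enzymes. Of 8 such counterparts, Pgk1, the glycolytic kinase paired with germ cell Pgk2, had -0.73 with ablation plus estradiol against sham and -0.67 with ablation against sham. Slc25a5, the counterpart of Slc25a31, had -0.80 and -0.77, the opposite sign to Slc25a31. Ldha, the counterpart of Ldhc, was lower with ablation against sham (-0.42). Ccna2, the counterpart of Ccna1 and a cyclin of dividing cells, was higher, at 1.59 ± 0.23 with ablation plus estradiol against sham and 0.80 ± 0.19 with ablation against sham. Of the 8, 1 was higher and 2 lower with ablation plus estradiol against sham (2.69% and 6.77% of all probe sets). For ablation against sham, 1 was higher and 3 lower (5.76% and 6.79%). With ablation plus estradiol against ablation 0 of the 8 passed in limma. An unadjusted p under 0.05 was reached by 1, and by 4343 of all 31042 probe sets.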

How the data were processed

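Total RNA of 31 rat testes was labelled and hybridised to Affymetrix arrays, per the labels' protocols. The deposited log2 values are signals made by the authors with MAS5, per the submitters' processing notes. The version, the base of the logarithm (read here as 2) and the scaling are not given in the sources used here. Columns were joined to samples by their accession. Of 31099 probe sets, 57 controls were left out, and 31042 were tested as deposited with no filter. By the platform annotation 20826 had 1 symbol, 436 several and 9780 none.

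Groups were fitted together with limma 3.58.1 in R 4.3.3 (lmFit, then eBayes with a trend), 2-sided, with Benjamini-Hochberg adjustment over all probe sets and a threshold of 0.05. A second fit split the sham arrays by description. The genes and lists were chosen with earlier results of these data known. Full values are given for called genes, the 10 with the widest range over sham arrays, and genes fixed by name. Of other lists up to 5 called genes of smallest adjusted p are named; any others named were chosen after their values were seen. The fit was also run on simulated data, and the outcome is not given here. Its noise was normal and independent between probe sets, without single arrays that are extreme for many genes at once.

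Alternatives were filters at the 40th and 60th percentile, quantile normalization, median centring, a floor at the 40th percentile, only the compared groups, no trend, robust moderation, array weights, the mean of a gene's probe sets, either description of the sham arrays, a replicate block and each array left out. One without sham 6, sham 7 and ablation 4 was chosen after seeing the data. Replicate numbers did not pair the arrays: correlations of same-numbered deviations were -0.10 to 0.04 (estradiol with ablation, 6 pairs), -0.0043 to 0.29 (estradiol with sham, 2 of 6 over 0.1) and -0.07 to 0.02 (ablation with sham, 11 pairs). No batch term could be fitted. For arrays their number limits the precision.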

Additional observations from a re-analysis of the deposited data

Results flagged for a closer look

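In the 6 estradiol arrays, 3 of 26 genes tested had 1 array set apart from the others, where the gap to the nearest array divided by the whole range exceeded the critical value for 6 arrays. By chance about 1 in 20 groups would do so. Slc25a31 on estradiol 6 was -3.50, below the other estradiol arrays (-1.14 to -0.41), with a gap of 0.764 of the range. Prm1 on estradiol 5 was -2.43, above the others, with a gap of 0.639. Oaz3 on estradiol 2 was -2.68, below the others, with a gap of 0.717. The arrays differed from gene to gene. Groups of 11 and 14 arrays were not examined in this way.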

How the results depend on the processing

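Genes called lower with ablation plus estradiol against ablation numbered 1 as reported, 0 after median centring, with the floor or without the trend, 2 with only the compared groups (Tnp1 and Prm1), and 0 to 1 leaving out each array. Those higher against sham numbered 1, also against sham 11 to 14 alone (Sycp1, 2.41, adjusted p = 0.0434, in place of Slc25a31), but 0 with the 60th percentile filter (6 genes tested), 3 without sham 6, sham 7 and ablation 4, and 1 to 2 leaving out each array. With ablation against sham, 1 was lower (Acr) with array weights or only the sham arrays described as control, 0 to 1 leaving out each array, and 3 were higher without the 3 arrays. The replicate block on shared numbers, which do not pair arrays, gave 0 higher against sham (Slc25a31 1.75, adjusted p = 0.101). Against ablation it gave Tnp1 (-3.46, adjusted p = 0.0343) in place of Prm1 (-4.06, adjusted p = 0.0514). At the 60th percentile, which more of all probe sets exceed by construction, arrays holding spermatid transcripts numbered 3 of ablation and 2 of sham. They numbered 1 of ablation and 2 of sham at a share of 25%, which equals that of all probe sets, and 0 of sham at 75%. With the floor, 9 of 26 changes took the other sign with ablation against sham, 6 with estradiol against ablation and 6 with estradiol against sham, 0 of them called. Among them were, against sham, Sycp1 (-0.0296) and Ldhc (-0.0517) with estradiol, and Acr (0.0168), Tnp1 (-0.0615) and Ldhc (-0.0259) with ablation. Sycp1 and Acr, like Spo11, Pdha2 and Hspa1l, never exceeded the 40th percentile. With the floor their change is only the difference of that percentile between groups, so any turn of sign says nothing about the genes. The floor removes differences among values below the 40th percentile, and the cause of the other shifts was not tested. Changes of genes below that percentile have little signal over background behind them.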
